A study of Mus musculus with 4 samples.

Results

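The genes described here are 37 identity genes of tumor-associated macrophages, chosen by symbol from a given list (with Emr1, the older name of Adgre1), and all 37 have a row among the 23951 gene rows of the expression table. RNA-seq libraries were made from mammary tumor cells sorted for yellow fluorescent protein. There were 2 libraries titled Lsd1 knockout and 2 titled Lsd1 wild-type. All donors were MMTV-PyMT females carrying the Rosa26-Stop-YFP reporter, and all had received the adenovirus Ad-K8-Cre into the mammary ducts 2 to 3 months earlier. The PyMT transgene drives tumors from the mammary epithelium, and the Krt8 promoter of the virus directs Cre to luminal cells. The experimental mice carried conditional Lsd1L/L alleles and the controls were Lsd1+/+, so both groups share the transgene, the reporter and the Cre virus. The labels give no age of the mice, no number of animals per library and no statement on whether separate animals were used, and the p-values therefore rest on the spread among these 4 libraries alone. The tissue label of both libraries titled knockout reads Lsd1+/+, and they are therefore called the libraries labelled knockout.

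Macrophages of a mammary tumor descend from tissue-resident cells and from blood monocytes, and they depend on the receptor Csf1r. They engulf dying cells, antibody-coated particles and lipoproteins, and they secrete complement and apolipoproteins. Their identity genes fall into soluble products, receptors that recognise particles, adaptors that signal for those receptors, and lysosomal enzymes that digest what was taken up. Several of the genes are shared with other cells: monocytes and neutrophils use Itgam and Cybb, NK cells use Tyrobp and Fcer1g, and B cells use Fcgr2b and Cd86.

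Levels are given in FPKM, fragments per kilobase of transcript scaled by the library total, for replicates 1 and 2 of a group in that order. The table gives no read totals. From the smallest increments between low values, the libraries labelled knockout were estimated to hold about 20200000 and 21800000 reads, and the wild-type libraries about 22400000 and 18500000. Kdm1a, the gene that encodes LSD1, had 20.2 and 22.8 FPKM in the libraries labelled knockout, against 52.5 and 22.9 FPKM in the wild-type libraries. The second wild-type library was thus at the level of the libraries labelled knockout, and on the log2(FPKM + 1) scale the groups differed by -0.67 (SE 0.46, limma, adjusted p = 0.34). Across genes the pair labelled knockout correlated more closely (Pearson r 0.99) than the wild-type pair (0.92) on that log scale. Luminal epithelial markers, which the sorted cells should carry, were present in all 4 libraries, and Krt8 had 254.7 and 259 FPKM in the libraries labelled knockout, against 4653 and 929 FPKM in the wild-type libraries.

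Nearly all of the macrophage genes were highest in a single library, the second wild-type one. It held the highest value for 36 of 37 genes, with Apoc1 as the exception. Summed over the 37 genes, the level was 2460 and 2373 FPKM in the libraries labelled knockout, against 1421 and 35254 FPKM in wild-type. These sums are 0.61 and 0.59% of all FPKM in the libraries labelled knockout, against 0.35 and 7.84% in the wild-type libraries. Without Apoe and Lyz2, the most abundant genes of the list, the shares were 0.30 and 0.28%, against 0.16 and 2.42%. The libraries labelled knockout lay between the wild-type libraries for 27 of the 37 genes, below both for 7 and above both for 0, and for C1qc, Gpnmb and Pf4 they lay on either side of the first wild-type library. Among the 34 tested genes, the second wild-type library was highest for 33 (23.2% of all 11138 tested genes). The libraries labelled knockout lay between the wild-type libraries for 26 (17.5% of all tested genes), each time with the second wild-type library above them (9.22%). They were below both for 5 (32.1%) and above both for 0 (39.3%). The cells were sorted for yellow fluorescent protein, and how macrophage RNA came into the libraries was not tested. In such bulk samples, a different number of macrophages and a different amount of RNA per macrophage cannot be told apart.

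**Figure D1:**
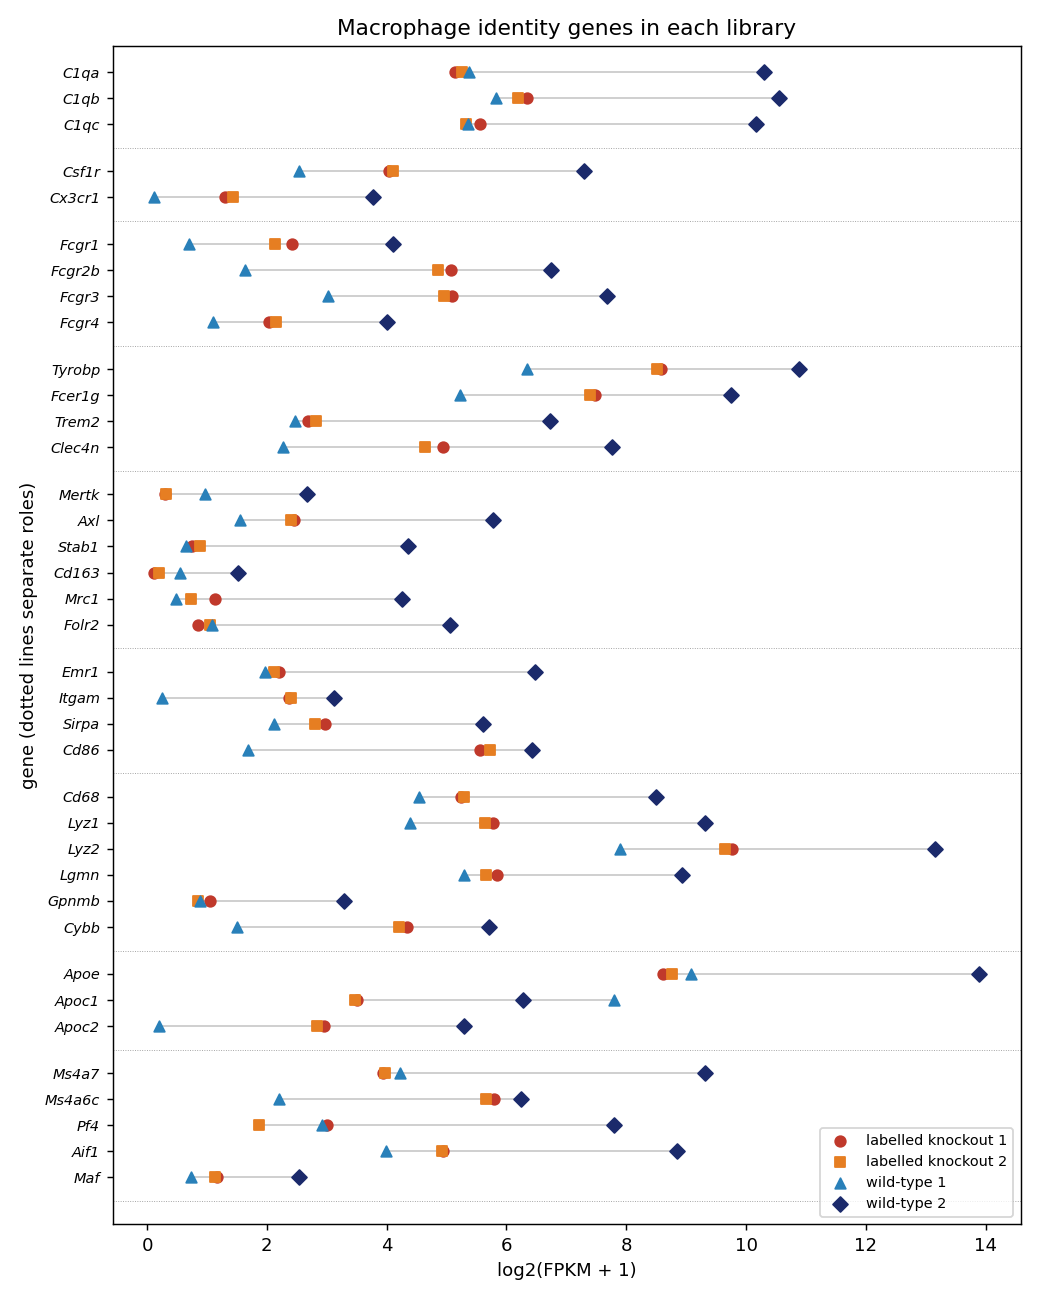
Levels of the 37 macrophage identity genes on the log2(FPKM + 1) scale (horizontal axis), 1 point per library and gene, with genes grouped by role and a grey line from the lowest to the highest library. The second wild-type library (diamonds) is highest for 36 of 37 genes, and for 27 genes the libraries labelled knockout lie between the wild-type libraries.

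Between the groups, 1 of the 34 macrophage genes that passed the filter on low values (at least 1 FPKM in at least 2 libraries) passed the test. That gene was Apoc1, which was lower in the libraries labelled knockout, and 0 genes were higher. Over all 11138 tested genes, 16.5% passed (limma on log2(FPKM + 1), Benjamini-Hochberg adjusted p under 0.05). The libraries labelled knockout were the higher ones for 9.51% and the lower ones for 6.99%. At an unadjusted p under 0.05 the macrophage count was also 1, against 39.5% of all tested genes. The median difference over the 34 genes was -1.06 on the log2 scale, beside 0.08 over all tested genes. Leaving out either wild-type library changed these counts and the median. Without the second wild-type library, 22 of the 34 genes were called higher in the libraries labelled knockout and 2 lower (38.3 and 32.7% of all tested genes), and the median was 0.90. Without the first, 0 were called higher and 33 lower (37.3 and 32.0% of all tested genes), and the median was -3.08. In those fits 1 wild-type library is left, which is assumed to vary like the pair labelled knockout. Without the first or the second library labelled knockout 0 of 11138 genes passed (limma), with 1385 and 1346 at an unadjusted p under 0.05, so every call named here ended in those fits. With no filter on low values 1 gene in all passed, and every call named here ended there too. Mertk, Stab1 and Cd163 did not pass the filter and were not tested.

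For most macrophage genes the wild-type libraries differed from each other by more than the groups did. The second exceeded the first by at least 2 on the log2(FPKM + 1) scale in 32 of the 34 genes, beside 5.23% of all tested genes, and the median difference was 4.52, beside -0.03. Maf (1.80) and Apoc1 (-1.53) were the other two, and the first exceeded the second by at least 2 in 0 of the 34 (1.29% of all tested genes). Over all 37 genes the FPKM ratio of the second to the first wild-type library had a median of 28.5, was at least 10 for 33 genes, and lay between 20 and 40 for 22. This is 1 library against 1, so it has no replicate check and no test. The pair labelled knockout was alike, with a median difference of -0.08 and a largest absolute difference of 1.14, for Pf4.

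**Figure D2:**
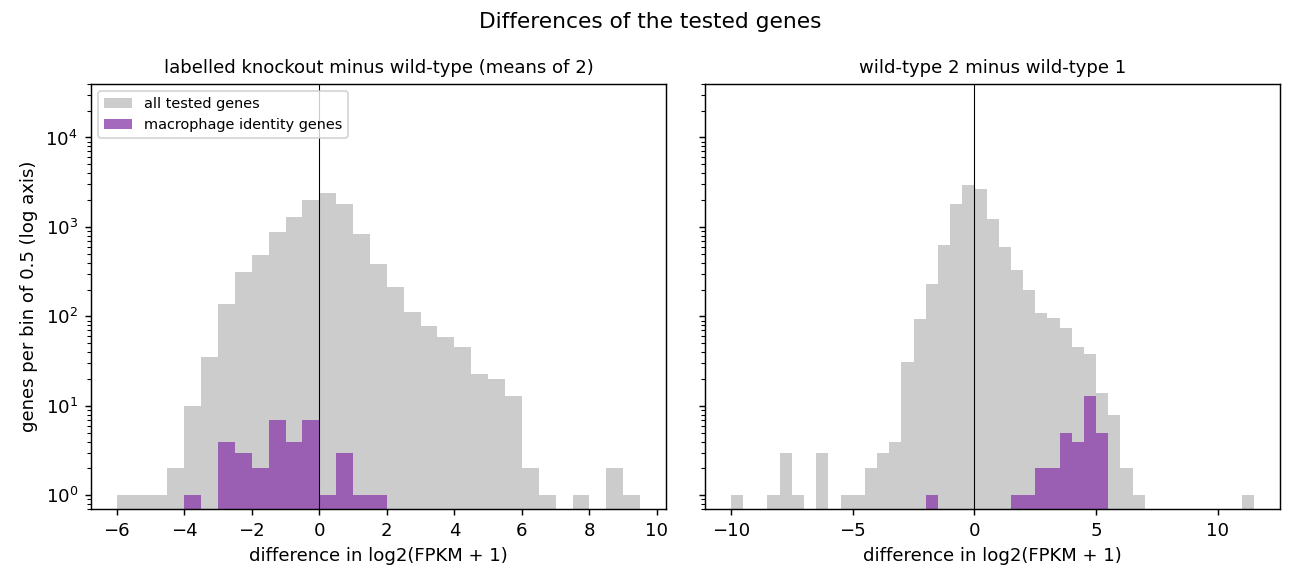
Number of genes (vertical log axis) per bin of 0.5 in log2(FPKM + 1) difference, for the libraries labelled knockout minus wild-type (left) and the second minus the first wild-type library (right), with all 11138 tested genes in grey and the 34 tested macrophage genes in purple. The macrophage genes have a median of -1.06 on the left and of 4.52 on the right.

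C1qa, C1qb and C1qc encode the chains of C1q, the recognition molecule of the classical complement pathway, which tissue macrophages secrete. C1qa had 34.3 and 37.3 FPKM in the libraries labelled knockout, against 40.5 and 1254 FPKM in the wild-type libraries. C1qb had 79.9 and 72.5 FPKM, against 55.6 and 1495 FPKM in wild-type. C1qc had 46.4 and 39.0 FPKM, against 39.9 and 1154 FPKM in wild-type. The libraries labelled knockout and the first wild-type library were thus at one low level and the second wild-type library stood alone, at 26.9 to 31.0 times the first. Group differences were -2.63 (SE 1.77), -1.92 (SE 1.70) and -2.32 (SE 1.74) on the log2 scale, with adjusted p of 0.33, 0.45 and 0.38 (limma). C1qb was the most abundant chain in all 4 libraries: it made up 49.8 and 48.7% of the C1q sum in the libraries labelled knockout and 40.9 and 38.3% in the wild-type libraries.

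The C1q genes are neighbours on chromosome 4, with no other protein-coding gene between them in RefSeq. The promoters of C1qb and C1qc are shown because both genes peaked in the second wild-type library. They are also shown because the macrophage regulator PU.1 binds sites with the core GAGGAA. C1qa is not shown, and it was not among the genes found to hold that core. The sequences run from 250 bases before to 50 after the start in RefSeq (GRCm38.p6), with that core on either strand in capitals. The C1qb window is chr4:136886151-136886450 and the C1qc window chr4:136892865-136893164, both on the minus strand.
C1qb: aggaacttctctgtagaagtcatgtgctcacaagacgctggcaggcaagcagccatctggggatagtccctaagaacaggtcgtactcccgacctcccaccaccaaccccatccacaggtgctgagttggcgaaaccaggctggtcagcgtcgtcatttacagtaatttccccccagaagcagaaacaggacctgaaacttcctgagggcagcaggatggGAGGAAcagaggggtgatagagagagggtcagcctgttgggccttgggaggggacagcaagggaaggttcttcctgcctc
C1qc: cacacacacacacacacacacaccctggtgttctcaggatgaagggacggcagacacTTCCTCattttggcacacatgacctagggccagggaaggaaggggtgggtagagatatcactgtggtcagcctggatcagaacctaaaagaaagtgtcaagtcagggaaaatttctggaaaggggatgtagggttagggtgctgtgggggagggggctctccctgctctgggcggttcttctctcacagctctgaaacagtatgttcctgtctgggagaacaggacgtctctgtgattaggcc
The C1qb window holds the core once, starting at -30 from the start, and the C1qc window holds it once on the other strand, at -193. Promoters were at hand for 28 of the 37 genes, and 16 of the 28 (57.1%) held the core in at least 1 window, against 31.3% of 27025 genes. The AP-1 motif TGACTCA was in 3 of 28 (10.7%, against 5.95% of all genes), the E-box CACGTG in 1 (3.57%, against 8.09%) and TATAAA in 2 (7.14%, against 15.7%), each searched on both strands. A match of letters is a description and not a binding site. Spi1, the gene of PU.1, had 39.5 and 41.0 FPKM in the libraries labelled knockout, against 6.47 and 144 FPKM in the wild-type libraries.

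Csf1r, the receptor for the growth factors CSF1 and IL-34, had 15.4 and 16.3 FPKM in the libraries labelled knockout, against 4.81 and 157 FPKM in the wild-type libraries. The fractalkine receptor gene Cx3cr1 had 1.47 and 1.69 FPKM, against 0.0851 and 12.7 FPKM in wild-type. Both were lowest in the first wild-type library, intermediate in the libraries labelled knockout and high in the second wild-type library. The first wild-type value of Cx3cr1 corresponds to about 8.6 reads by the depth estimate. Neither passed the test between the groups (Csf1r -0.85, SE 1.72, adjusted p = 0.74 and Cx3cr1 -0.58, SE 1.33, adjusted p = 0.77 by limma), and the Cx3cr1 difference was 0.13 with a pseudocount of 0.1.

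Fc receptors bind the constant part of IgG, and 4 of their genes are on the list. Fcgr1, the high-affinity receptor, had 4.33 and 3.40 FPKM in the libraries labelled knockout, against 0.634 and 16.2 FPKM in the wild-type libraries. Fcgr2b, the inhibitory receptor that B cells also carry, had 32.7 and 28.2 FPKM, against 2.11 and 106 FPKM in wild-type. For Fcgr2b the libraries labelled knockout reached 28.7% of the second wild-type library, while the first wild-type library was at 1.99% of it. Fcgr3, an activating receptor, had 33.1 and 30.1 FPKM, against 7.11 and 203 FPKM in wild-type. Fcgr4, also activating, had 3.08 and 3.45 FPKM, against 1.16 and 15.0 FPKM in wild-type. All 4 were lowest in the first wild-type library and highest in the second. The differences between groups ran from -0.46 (Fcgr4) to 0.78 (Fcgr2b), with SE of 1.06 to 1.84 and adjusted p of 0.77 to 0.95 (limma). Fcgr2b and Fcgr3 share sequence: 12.8% of the 50-base words of the longest Fcgr3 transcript in GENCODE M21 also occur in Fcgr2b transcripts, so part of their reads could be split.

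Tyrobp and Fcer1g encode the membrane adaptors through which Fc receptors and lectin-like receptors signal, in macrophages and in NK cells. Tyrobp had 380.0 and 364 FPKM in the libraries labelled knockout, against 80.0 and 1885 FPKM in the wild-type libraries. Fcer1g had 177 and 168 FPKM, against 36.3 and 857 FPKM in wild-type. The ratio of the adaptors was nearly the same in all 4 libraries, with Fcer1g at 46.7 and 46.2% of Tyrobp in the libraries labelled knockout and at 45.4 and 45.5% in the wild-type libraries. Trem2, a lipid-sensing receptor that signals through Tyrobp, had 5.44 and 6.10 FPKM, against 4.53 and 105 FPKM in wild-type. Clec4n, the fungal lectin receptor Dectin-2 that signals through Fcer1g, had 29.6 and 24.0 FPKM, against 3.82 and 217 FPKM in wild-type. These receptors differed in where the libraries labelled knockout lay: Trem2 was there 1.27 times the first wild-type level and Clec4n 7.01 times. Group differences were -0.07 (SE 1.63) for Tyrobp, -0.04 (SE 1.63) for Fcer1g, -1.84 (SE 1.54) for Trem2 and -0.23 (SE 1.98) for Clec4n, and adjusted p was 0.42 to 0.99 (limma).

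Uptake receptors were low outside the second wild-type library. Mertk, a kinase receptor for apoptotic cells, had 0.237 and 0.243 FPKM in the libraries labelled knockout, against 0.958 and 5.39 FPKM in the wild-type libraries. Its relative Axl had 4.46 and 4.28 FPKM, against 1.93 and 54.0 FPKM in wild-type. Mrc1, the mannose receptor, had 1.19 and 0.659 FPKM, against 0.399 and 18.2 FPKM in wild-type. Axl was therefore above the first wild-type level in the libraries labelled knockout, and Mertk below it. Folr2, a folate receptor of resident macrophages, had 0.812 and 1.06 FPKM, against 1.12 and 32.4 FPKM in wild-type. The scavenger receptor gene Stab1 had 0.692 and 0.851 FPKM, against 0.572 and 19.6 FPKM in wild-type. Cd163, the receptor for haptoglobin-bound hemoglobin, had 0.0894 and 0.145 FPKM, against 0.458 and 1.88 FPKM in wild-type. The 6 genes were at 2.89 to 8.10% of the second wild-type level in the libraries labelled knockout. Of the tested ones, Axl differed by -1.24 (SE 1.53), Mrc1 by -1.44 (SE 1.38) and Folr2 by -2.12 (SE 1.44), with adjusted p of 0.58, 0.48 and 0.34 (limma).

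Adhesion and recognition genes stood at different levels in the libraries labelled knockout. Emr1, the classical surface antigen of mouse macrophages, had 3.59 and 3.35 FPKM in the libraries labelled knockout, against 2.91 and 87.7 FPKM in the wild-type libraries. Sirpa, whose product reads the self-signal Cd47, had 6.82 and 5.97 FPKM, against 3.37 and 47.9 FPKM in wild-type. Itgam, an integrin of macrophages, monocytes, neutrophils and NK cells, had 4.17 and 4.32 FPKM, against 0.186 and 7.72 FPKM in wild-type. Emr1 in the libraries labelled knockout was at 3.96% of the second wild-type level and Itgam at 55.0%. Cd86, a costimulatory ligand that dendritic and B cells also carry, had 45.9 and 52.1 FPKM, against 2.22 and 85.4 FPKM in wild-type. The ratio of Cd86 to Emr1 was 12.8 and 15.5 in the libraries labelled knockout and 0.763 and 0.974 in the wild-type libraries. Group differences were -2.06 (SE 1.63) for Emr1, -0.99 (SE 1.27) for Sirpa, 0.71 (SE 1.05) for Itgam and 1.58 (SE 1.71) for Cd86, and adjusted p was 0.40 to 0.65 (limma). Of the 50-base words of the longest Itgam transcript, 72.4% also belong to an overlapping annotated gene, Gm49368, and their reads cannot be separated here.

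Lysosomal and phagosomal genes again peaked in the second wild-type library. Cd68, a lysosomal membrane glycoprotein, had 36.8 and 37.9 FPKM in the libraries labelled knockout, against 22.3 and 359 FPKM in the wild-type libraries. Lgmn, an asparagine-specific protease, had 56.1 and 49.8 FPKM, against 38.4 and 488 FPKM in wild-type. Gpnmb, a glycoprotein of lysosome-rich macrophages, had 1.07 and 0.798 FPKM, against 0.841 and 8.73 FPKM in wild-type. The second wild-type library was 16.1, 12.7 and 10.4 times the first for these genes, below the median ratio of the list. Cybb, the membrane subunit of the phagocyte NADPH oxidase, had 19.4 and 17.5 FPKM, against 1.83 and 51.4 FPKM in wild-type. For Cybb the libraries labelled knockout reached 35.8% of the second wild-type level. The differences between groups ran from -1.37 (Lgmn) to 0.67 (Cybb) over these 4 genes, with SE of 0.89 to 1.52 and adjusted p of 0.40 to 0.77 (limma).

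Lysozyme breaks bacterial cell walls, and the mouse has a pair of lysozyme genes: Lyz2 is the macrophage form and Lyz1 the form of intestinal Paneth cells. Lyz2 had 869 and 804 FPKM in the libraries labelled knockout, against 238 and 9165 FPKM in the wild-type libraries. Lyz1 had 53.8 and 49.2 FPKM, against 19.9 and 633 FPKM in wild-type. Lyz1 was at 6.19 and 6.12% of Lyz2 in the libraries labelled knockout and 8.35 and 6.91% in the wild-type libraries. The differences between groups were -0.82 (SE 1.89) for Lyz2 and -1.13 (SE 1.77) for Lyz1, with adjusted p of 0.77 and 0.67 (limma). The genes lie next to each other on chromosome 10, their longest transcripts are 92.0% identical in an alignment, and 16.1% of the 50-base words of the Lyz1 transcript are also in Lyz2. The Lyz1 level is therefore uncertain. The promoters (RefSeq, GRCm38.p6, minus strand) are shown to let the likeness be seen, with the bases that differ in a global alignment in capitals. The Lyz1 window is chr10:117292819-117293118 and the Lyz2 window chr10:117282223-117282522.
Lyz1: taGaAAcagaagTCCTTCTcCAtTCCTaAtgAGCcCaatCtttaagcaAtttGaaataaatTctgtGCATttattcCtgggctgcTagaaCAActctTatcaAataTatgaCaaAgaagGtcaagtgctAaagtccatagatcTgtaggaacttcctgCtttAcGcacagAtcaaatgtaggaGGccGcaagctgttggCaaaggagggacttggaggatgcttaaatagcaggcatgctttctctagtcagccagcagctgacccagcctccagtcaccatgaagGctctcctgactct
Lyz2: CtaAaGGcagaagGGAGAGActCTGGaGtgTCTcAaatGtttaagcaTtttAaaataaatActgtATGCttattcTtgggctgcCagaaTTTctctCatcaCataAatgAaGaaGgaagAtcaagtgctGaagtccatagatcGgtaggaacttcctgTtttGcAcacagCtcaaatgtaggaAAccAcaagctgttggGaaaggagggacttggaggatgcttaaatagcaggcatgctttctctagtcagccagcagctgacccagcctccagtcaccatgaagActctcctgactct
The windows share 249 bases over 302 alignment columns (82.5%), and neither holds GAGGAA on either strand.

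Apolipoproteins gave both the most abundant gene of the list and its single call. Apoe, the main lipid carrier that macrophages secrete, had 389 and 433 FPKM in the libraries labelled knockout, against 543 and 15205 FPKM in the wild-type libraries. It was the highest of all rows in the second wild-type library (3.38% of all FPKM) and ranked 150 and 134 in the libraries labelled knockout and 98 in the first wild-type library. Apoc2, the activator of lipoprotein lipase, had 6.74 and 6.11 FPKM, against 0.145 and 38.3 FPKM in wild-type. The first wild-type value of Apoc2 corresponds to about 2.4 reads by the depth estimate, and 88.2% of its 50-base words are shared with an annotated gene, Gm44805. Ratios of Apoc2 to the first wild-type library are therefore uncertain. Apoe differed by -2.81 (SE 1.73, adjusted p = 0.30, limma) and Apoc2 by 0.14 (SE 1.84, adjusted p = 0.96, limma). Apoc1, which inhibits lipoprotein uptake, had 10.4 and 10.2 FPKM in the libraries labelled knockout, against 222 and 76.5 FPKM in the wild-type libraries. For Apoc1 the libraries labelled knockout lay below both wild-type libraries, as in 32.1% of all tested genes. The order of libraries of Apoc1 was unlike that of every other gene of the list, with the first wild-type library highest. Apoc1 fell by 3.54 on the log2 scale (SE 0.57, limma, adjusted p = 0.037). The call ended without the first or the second library labelled knockout (adjusted p = 0.39 and 0.38) and with no filter on low values (adjusted p = 0.16). Luminal epithelial markers were also highest in the first wild-type library, lower in the second and lowest in the pair labelled knockout. Their summed level was 701 and 720 FPKM in the libraries labelled knockout, against 11714 and 2622 FPKM in wild-type. Of the 9 luminal genes Cldn3 alone passed (lower), with 8 at an unadjusted p under 0.05 (limma). The part of luminal cells in the Apoc1 result was not tested. Apoe is the next protein-coding gene beside Apoc1 on chromosome 7.

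The remaining genes include a cytokine, an actin-binding protein and a nuclear factor. Ms4a7, a membrane protein of resident macrophages, had 14.4 and 14.8 FPKM in the libraries labelled knockout, against 17.6 and 635 FPKM in the wild-type libraries. Its family member Ms4a6c had 54.3 and 49.4 FPKM, against 3.62 and 74.8 FPKM in wild-type. The ratio of Ms4a6c to Ms4a7 was 3.79 and 3.35 in the libraries labelled knockout and 0.205 and 0.118 in the wild-type libraries. Of the 50-base words of the longest Ms4a6c transcript, 11.3% also occur in other genes, among them Ms4a6b. Part of the Ms4a6c reads could therefore be split. Pf4, a chemokine of platelets and some tissue macrophages, had 7.01 and 2.64 FPKM, against 6.54 and 221 FPKM in wild-type. Platelet markers were near 0 in every library, with a summed level over 7 genes of 0.401 and 0.385 FPKM in the libraries labelled knockout, against 0.269 and 1.84 FPKM in wild-type. Aif1, an actin-binding protein of macrophages and microglia, had 29.8 and 29.3 FPKM, against 15.0 and 458 FPKM in wild-type. Maf, a transcription factor of macrophages and of some T cells, had 1.25 and 1.21 FPKM, against 0.659 and 4.78 FPKM in wild-type. The differences between groups were -2.81 (SE 1.83) for Ms4a7, 1.50 (SE 1.46) for Ms4a6c, -2.92 (SE 1.81) for Pf4, -1.49 (SE 1.75) for Aif1 and -0.47 (SE 0.67) for Maf, and adjusted p was 0.30 to 0.63 (limma).

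The libraries labelled knockout thus stood at a different share of the second wild-type level for different genes. The share was at most 10% for 17 genes, above 10 and up to 30% for 16 and above 30% for 4. Pf4 (2.18%), Ms4a7 (2.29%), Apoe (2.70%), C1qa (2.85%) and Folr2 (2.89%) were at the low end. Ms4a6c (69.3%), Cd86 (57.3%), Itgam (55.0%) and Cybb (35.8%) were at the high end. Over these genes, picked by the libraries labelled knockout, the first wild-type library was at 2.95, 2.78, 3.57, 3.23 and 3.46% for the first set. For the second set it was at 4.84, 2.60, 2.40 and 3.55%. Over the whole list without Apoc1 its share varied widely, from 0.38% (Apoc2) and 0.67% (Cx3cr1) to 17.8% (Mertk) and 24.4% (Cd163). The Apoc2 and Cx3cr1 values rest on few reads. Set against the first wild-type library, the mean of the libraries labelled knockout was higher by at least 2 on the log2 scale in 10 of 34 genes (7.48% of all tested genes) and within 1 in 18 (62.2% of all tested genes). It was at least 2 below the second wild-type library in 26 (4.61% of all tested genes). Across the 37 genes, Spearman correlations of level were 0.98 between the libraries labelled knockout, 0.91 between the wild-type libraries, 0.82 and 0.79 between the libraries labelled knockout and the first wild-type library, and 0.88 and 0.84 with the second. The values share libraries and the genes are not independent, so these serve as a description.

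**Figure D3:**
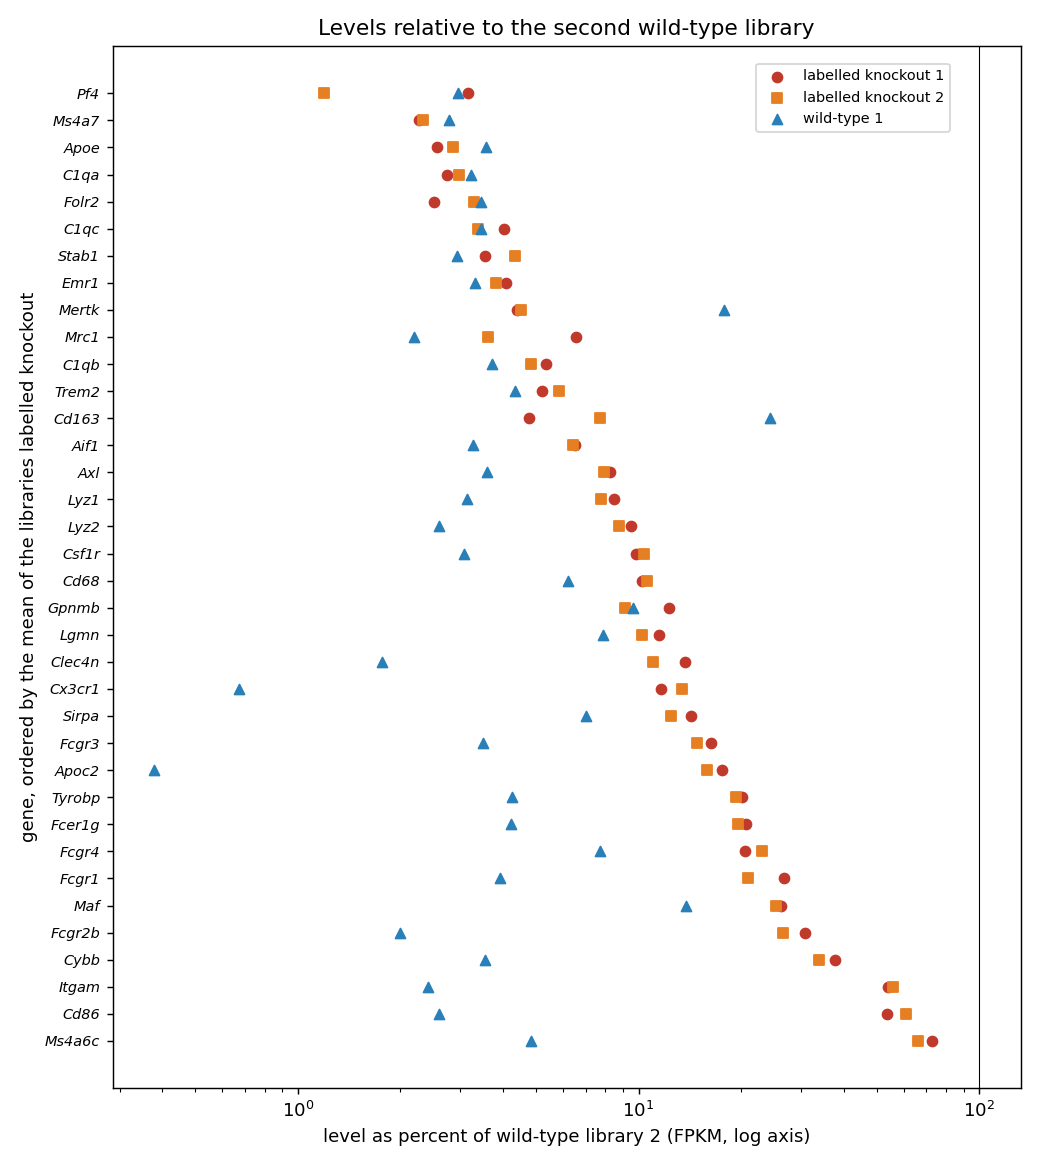
Level of 36 macrophage genes in each other library as a percent of the second wild-type library (horizontal log axis, FPKM), ordered by the mean of the libraries labelled knockout, with Apoc1 left out because the first wild-type library exceeds the second. The libraries labelled knockout spread from 2.18% (Pf4) to 69.3% (Ms4a6c) of it, as means of 2.

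Marker lists of other cells stood in other orders of libraries, save the platelet and adipocyte lists. The sums of those lists were at most 2.08 FPKM. Monocyte markers, with Plac8, Ly6c2 and Ccr2 as the most abundant, summed to 408 and 402 FPKM over 8 genes in the libraries labelled knockout, against 7.62 and 134 FPKM in wild-type, and Spn alone of the 7 tested rose (2.39, SE 0.36, adjusted p = 0.035, limma). Spn was under 1 FPKM in both wild-type libraries and entered the test through the pair labelled knockout alone, so its call lends no support. With a pseudocount of 0.1 the Spn call ended (adjusted p = 0.071, limma). Plac8 made up 62.2 and 64.2% of the monocyte sum in the libraries labelled knockout, and 3 of the 8 genes, F13a1, Ace and Treml4, were highest in the second wild-type library. F13a1 had 4.07 and 3.04 FPKM in the libraries labelled knockout, against 0.966 and 19.6 FPKM in wild-type. The monocyte genes are not taken to be restricted to monocytes, and the part of lymphocytes in this sum was not tested. B cell markers summed to 535 and 524 FPKM, against 3.97 and 18.1 FPKM in wild-type, with 6 of 6 tested genes higher. Of these, 3 were under 1 FPKM in both wild-type libraries and entered the test through the pair labelled knockout alone, and the Cd79b call ended with a pseudocount of 0.1 (adjusted p = 0.066, limma) and the Pax5 call after quantile normalization and with a plain prior (adjusted p = 0.052 and 0.050, limma). NK cell markers summed to 93.0 and 91.3 FPKM, against 0.534 and 3.88 FPKM in wild-type, and 4 of the 7 were listed at 0 in the first wild-type library. All 7 passed the test as higher, but 6 were under 1 FPKM in both wild-type libraries and entered the test through the pair labelled knockout alone, so that count lends no support. The calls of Klre1, Gzma and Prf1 ended with a pseudocount of 0.1 (adjusted p = 0.086, 0.081 and 0.051, limma). The sum of each of these lists was highest in the libraries labelled knockout, where that of the macrophage genes was not. T cell markers summed to 1175 and 1109 FPKM, against 12.8 and 42.7 FPKM in wild-type, with 6 of 7 higher. Dendritic cell markers summed to 416 and 388 FPKM, against 9.95 and 39.0 FPKM in wild-type, and of 7 tested genes Ccr7 and Itgae, which T cells also express, were higher. Ccr7 made up 91.3 and 91.2% of that sum in the libraries labelled knockout, and Batf3 was highest in the second wild-type library, with 2.31 and 1.61 FPKM in the libraries labelled knockout, against 1.57 and 12.4 FPKM in wild-type. Itgae was under 1 FPKM in both wild-type libraries and entered the test through the pair labelled knockout alone, so its call lends no support. Neutrophil markers summed to 1166 and 1245 FPKM, against 573 and 627 FPKM in wild-type, with Ngp, Camp and Mmp8 higher of 8 tested. The calls of Camp and Mmp8 ended with a pseudocount of 0.1 (adjusted p = 0.055 and 0.054, limma). Mmp8 was under 1 FPKM in both wild-type libraries and entered the test through the pair labelled knockout alone, so its call lends no support. Ltf ran the other way, with 42.3 and 37.3 FPKM in the libraries labelled knockout, against 313 and 76.4 FPKM in wild-type (adjusted p = 0.14, limma), and made up 54.6% of the first wild-type sum. Csf3r was highest in the second wild-type library, at 12.5 FPKM. Of the 10 macrophage genes at least 2 above the first wild-type library in the libraries labelled knockout, Cd86, Itgam, Cybb, Fcgr2b, Tyrobp and Fcer1g are also used by cells of these lists. The others, Apoc2, Clec4n, Fcgr3 and Ms4a6c, are not taken to be restricted to macrophages. Genes of the list outside the 10, such as Maf and Pf4, are shared with other cells too, so sharing is not particular to the 10. The part of other cells in the levels of the 10 genes was not tested. Endothelial markers summed to 24.9 and 25.0 FPKM, against 38.2 and 281 FPKM in wild-type, and fibroblast markers to 144 and 146 FPKM, against 193 and 452 FPKM in wild-type, so the second wild-type library was also highest in both. None of the 6 endothelial and 8 fibroblast genes tested passed (limma), with 3 and 2 at an unadjusted p under 0.05. Mast cell markers summed to 6.78 and 5.38 FPKM, against 11.3 and 6.60 FPKM in wild-type, and adipocyte markers to 0.263 and 0.244 FPKM, against 0 and 2.08 FPKM in wild-type. Kit made up 100% of the mast cell sum in the first wild-type library, where 6 of the 7 mast cell genes were listed at 0. Basal epithelial markers summed to 75.0 and 90.8 FPKM, against 502 and 133 FPKM in wild-type, and Acta2 alone of 6 passed (lower).

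**Figure D4:**
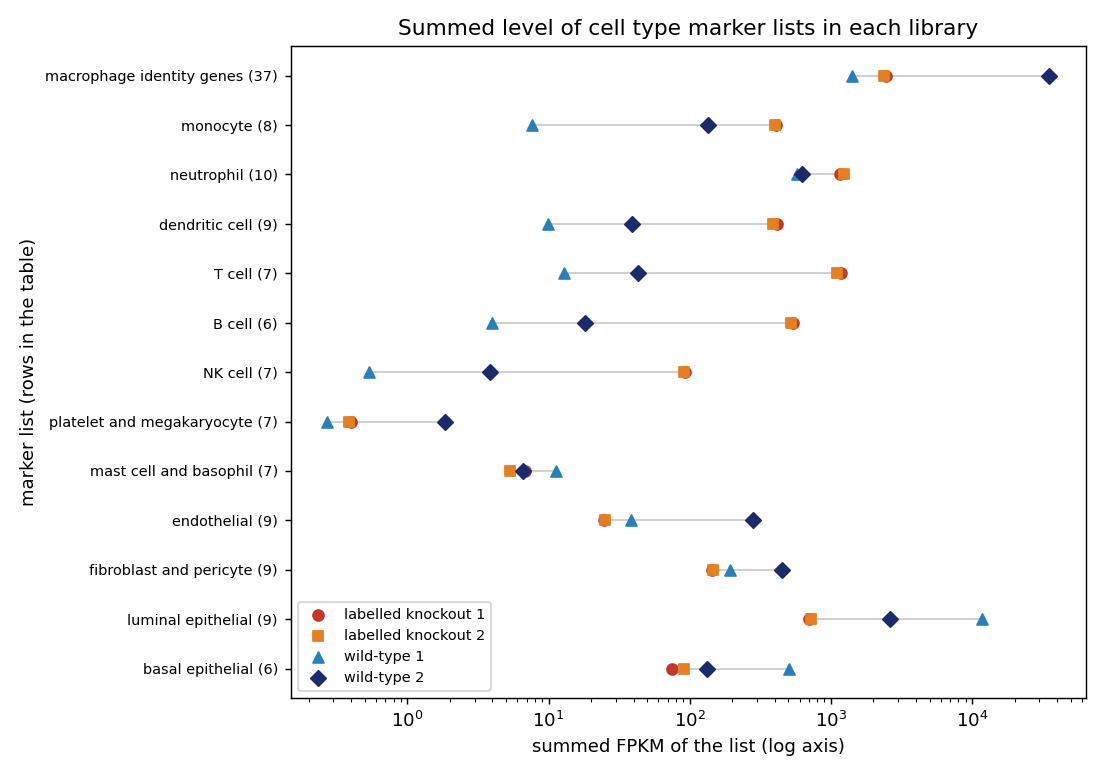
Summed FPKM (horizontal log axis) of the 37 macrophage identity genes and of marker lists of other cells, 1 point per library, with the number of genes in brackets. The macrophage sum is highest in the second wild-type library (35254 FPKM), the lymphoid and monocyte sums in the libraries labelled knockout, and the luminal epithelial sum in the first wild-type library (11714 FPKM).

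Of 8 genes for ligands and partners of the macrophage receptors, 2 rose, 2 fell and 4 did not pass. Gas6, a ligand of Axl and Mertk, had 5.83 and 7.60 FPKM in the libraries labelled knockout, against 25.4 and 52.3 FPKM in wild-type. Gas6 fell by 2.29 (SE 0.42, adjusted p = 0.044, limma). Pros1, another ligand of Mertk, had 7.35 and 6.02 FPKM, against 36.2 and 29.8 FPKM in wild-type, and fell by 2.15 (SE 0.23, adjusted p = 0.025, limma). In both ligands the libraries labelled knockout lay below both wild-type libraries, as in 32.1% of all tested genes. The part of epithelial and other cells in the Gas6 and Pros1 calls was not tested. The receptors of Cd86 on T cells were higher in the libraries labelled knockout: Ctla4 had 59.2 and 56.0 FPKM, against a row listed at 0 and 1.19 FPKM in wild-type (adjusted p = 0.024, limma). Cd28 had 15.7 and 12.8 FPKM, against 0.661 and 0.776 FPKM in wild-type (adjusted p = 0.024, limma). Being under 1 FPKM in both wild-type libraries, Cd28 entered the test through the pair labelled knockout alone, so its call lends no support. Cd47, the ligand of Sirpa, had 105 and 97.9 FPKM, against 35.0 and 73.7 FPKM in wild-type (adjusted p = 0.17, limma). The growth factors of Csf1r were not called: Csf1 had 7.05 and 8.90 FPKM, against 32.1 and 17.3 FPKM in wild-type (adjusted p = 0.073, limma), and Il34 had 0.844 and 1.11 FPKM, against 0.541 and 2.61 FPKM in wild-type (adjusted p = 0.72, limma).

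Kinases, phosphatases and adaptors relay the signal below Tyrobp and Fcer1g. None of the 11 genes passed between the groups (limma, 1 at an unadjusted p under 0.05, median difference 1.34), and in 10 the second wild-type library exceeded the first by at least 2 on the log2 scale. Hcst, the adaptor DAP10, had 165 and 141 FPKM in the libraries labelled knockout, against 2.25 and 29.7 FPKM in the wild-type libraries. The phosphatase gene Ptpn6 had 105 and 115 FPKM, against 8.16 and 55.4 FPKM in wild-type. The kinase gene Lyn had 47.5 and 40.2 FPKM, against 11.2 and 54.4 FPKM in wild-type. Hcst and Ptpn6, which lymphocytes also express, were thus higher in the libraries labelled knockout than in either wild-type library. That order held for 39.3% of all tested genes.

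Of 8 tested macrophage transcription factor genes (10 listed), Cebpb fell by 0.98 (SE 0.17, adjusted p = 0.041, limma) and 7 did not pass. At an unadjusted p under 0.05 the count was 4 of the 8 (limma). With a plain prior the Cebpb call ended (adjusted p = 0.058, limma). Cebpb, a regulator of many secretory and myeloid cells, had 317 and 344 FPKM in the libraries labelled knockout, against 586 and 724 FPKM in the wild-type libraries. Irf8, a factor of monocytes, dendritic and B cells, had 59.5 and 56.7 FPKM, against 2.79 and 53.2 FPKM in wild-type. For Cebpb the wild-type libraries were close together, unlike for Irf8. The part of epithelial cells in the Cebpb call was not tested.

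Of 23 other macrophage and phagocyte genes 16 were tested, and none passed between the groups (limma, 1 at an unadjusted p under 0.05), with a median difference of 0.18, and in 14 the second wild-type library exceeded the first by at least 2. Ctss, a lysosomal protease, had 265 and 246 FPKM in the libraries labelled knockout, against 75.3 and 1881 FPKM in the wild-type libraries. The endotoxin co-receptor gene Cd14 had 426 and 387 FPKM, against 195 and 1112 FPKM in wild-type. Cyba, the oxidase partner of Cybb, had 367 and 350.4 FPKM, against 69.3 and 788 FPKM in wild-type. All 3 were lowest in the first wild-type library and highest in the second.

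Lipid handling and complement genes outside C1q contained several calls, all lower in the libraries labelled knockout. Of 12 lipid genes Fabp5, Plin2, Cd9 and Spp1 fell and 8 did not pass (limma, 7 of the 12 at an unadjusted p under 0.05). The median difference over the lipid genes was -1.68. Fabp5, a fatty acid carrier, had 54.3 and 59.3 FPKM in the libraries labelled knockout, against 233 and 250.4 FPKM in the wild-type libraries. Spp1, the osteopontin gene, had 322 and 318 FPKM, against 1127 and 885 FPKM in wild-type. In Fabp5 and Spp1 the wild-type libraries differed by 0.10 and -0.35 on the log2 scale. The lipid droplet gene Plin2 had 89.1 and 87.2 FPKM, against 643 and 308 FPKM in wild-type, and the tetraspanin gene Cd9 had 153 and 148 FPKM, against 1226 and 524 FPKM in wild-type. Ctsd, a lysosomal protease, had 203 and 189.5 FPKM, against 507 and 1355 FPKM in wild-type (adjusted p = 0.071, limma). The adjusted p of Fabp5, Plin2, Cd9 and Spp1 was 0.024 to 0.046 (limma). The Cd9 call ended with a pseudocount of 0.1 and after quantile normalization (adjusted p = 0.052 and 0.056, limma). Of 11 tested complement genes C2 (-1.49, SE 0.24), C4b (-2.37, SE 0.22) and Cfb (-1.83, SE 0.19) fell, with adjusted p of 0.024 to 0.037 (limma), and 8 did not pass. C2 was under 1 FPKM in both libraries labelled knockout and entered the test through the wild-type pair alone, so its call lends no support. The C2 call ended with a pseudocount of 0.1 (adjusted p = 0.052, limma). Cfb, a protease of the alternative pathway, had 8.20 and 7.53 FPKM, against 31.5 and 29.5 FPKM in wild-type. Cfp, the stabiliser of the alternative pathway, had 15.3 and 15.4 FPKM, against 3.58 and 66.7 FPKM in wild-type (adjusted p = 0.97, limma). C5ar1, the receptor of the complement fragment C5a, had 12.1 and 10.5 FPKM, against 1.01 and 47.0 FPKM in wild-type (adjusted p = 0.90, limma). Cfp and C5ar1 were lowest in the first wild-type library and highest in the second. The summed level of luminal epithelial markers was lower in the libraries labelled knockout, as given for Apoc1, and their part in these calls was not tested.

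Activation genes went both ways. Of 10 tested genes Chil3 rose, Arg1 fell and 8 did not pass. Arg1, an enzyme of alternatively activated macrophages, had 5.65 and 5.73 FPKM in the libraries labelled knockout, against 29.9 and 23.1 FPKM in the wild-type libraries (difference -2.03, SE 0.23, adjusted p = 0.027, limma). Chil3, a chitinase-like protein of macrophages and neutrophils, had 14.8 and 12.5 FPKM, against a row listed at 0 and 1.08 FPKM in wild-type (adjusted p = 0.031, limma), a call that ended with a pseudocount of 0.1 (adjusted p = 0.074, limma). For Arg1 the first wild-type library was the highest, as for the luminal epithelial sum. The part of epithelial cells in the Arg1 call was not tested. Retnla, also tied to alternative activation, had 5.23 and 7.53 FPKM, against 18.0 and 329.9 FPKM in wild-type (adjusted p = 0.18, limma). The inflammatory cytokine gene Il1b had 301 and 299 FPKM, against 12.9 and 413 FPKM in wild-type (adjusted p = 0.45, limma). Il6, another inflammatory cytokine gene, had 36.4 and 48.7 FPKM, against 48.9 and 49.7 FPKM in wild-type (adjusted p = 0.50, limma).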

How the data were processed

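RNA-seq libraries (2 labelled knockout, 2 wild-type) were made with a low-input Clontech SMARTer mRNA kit, per the labels' protocols. The deposited values are FPKM, scaled by the authors for transcript length and library total; the unit was read from the values. The build is mm9, per the submitters' processing notes; the aligner is not given in the sources used here. Groups come from the titles.

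Of 24043 rows, 92 spike-ins, all at 0, were left out. Values were tested as log2(FPKM + 1), which understates changes of low genes, for genes that reached 1 FPKM in 2 or more libraries. The tool was limma (3.58.1, R 4.3.3) with a trended, robust prior and Benjamini-Hochberg adjustment at 0.05. An exact permutation test of 2 against 2 cannot go below p = 0.333 (two-sided). The genes and lists were chosen with earlier results of these data known. Every gene of the list is named; of other lists, the 3 highest by mean FPKM and calls of 5 or fewer, with a few further ligands and markers chosen after their values were seen.

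Relative depth came from whole-number ratios (up to 6, within 0.2%) between values under 0.1 FPKM. Absolute depth came from 32 single-transcript genes of GENCODE M21 and is rough, with quartiles of 14500000 to 23900000 reads for the second library labelled knockout. Alternatives tried were a pseudocount of 0.1, no filter or 5 FPKM, median centring, quantile normalization, a plain prior, a replicate block and leaving out each library.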

Additional observations from a re-analysis of the deposited data

How the results depend on the processing

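Leaving out 1 library at a time, the count of macrophage genes called higher in the libraries labelled knockout ran from 0 to 22 and the count called lower from 0 to 33, and the number of all genes called ran from 0 to 7912. With no filter on low values, 0 macrophage genes and 1 gene in all passed, against 1 and 1837 with the filter. The median difference over the macrophage genes ran from -3.08 to 0.90 when a library was left out. The median difference between the second and the first wild-type library was 4.52, and 4.79 with a pseudocount of 0.1, 4.26 with no filter, 4.76 with a filter of 5 FPKM and 4.33 after quantile normalization. The cause of these changes was not tested.

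The replicate numbers did not establish pairs: the correlation of same-numbered deviations was -0.062 over 2 pairs. With the replicate number as a block, 501 genes were called in all and the Apoc1 call held (adjusted p = 0.045, limma). Of 41 calls among the other listed genes 9 ended with that block, those of Cebpb, C2, Cfb, Arg1, Spn, Mmp8, Pax5, Klre1 and Acta2 (adjusted p = 0.050 to 0.070, limma). With no filter on low values all 41 ended (0.12 to 0.18), with a pseudocount of 0.1 10 ended (0.051 to 0.086), and with a plain prior and after quantile normalization 2 each.

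Direction changed for several genes. With a pseudocount of 0.1, Cx3cr1 was at 0.13 and Fcgr1 at 0.19. After quantile normalization, Fcer1g was at 0.027, Apoc2 at -0.054 and Pecam1 at -0.049, and after median centring Pecam1 was at -0.029. Leaving out 1 library at a time gave, as the lowest and highest log2 difference, C1qb (-4.28 to 0.45), C1qc (-4.73 to 0.090), Csf1r (-3.23 to 1.53), Cx3cr1 (-2.40 to 1.25), Fcgr1 (-1.83 to 1.57), Fcgr2b (-1.77 to 3.33), Fcgr3 (-2.65 to 2.00), Fcgr4 (-1.91 to 0.98), Tyrobp (-2.34 to 2.20), Fcer1g (-2.31 to 2.22), Trem2 (-3.96 to 0.29), Clec4n (-2.98 to 2.52), Axl (-3.35 to 0.87), Mrc1 (-3.33 to 0.45), Emr1 (-4.31 to 0.19), Itgam (-0.73 to 2.15), Sirpa (-2.73 to 0.76), Cd86 (-0.79 to 3.96), Cd68 (-3.23 to 0.72), Lyz1 (-3.60 to 1.33), Lyz2 (-3.45 to 1.81), Lgmn (-3.18 to 0.45), Gpnmb (-2.33 to 0.068), Cybb (-1.44 to 2.78), Apoc2 (-2.41 to 2.70), Ms4a6c (-0.52 to 3.51), Aif1 (-3.91 to 0.94), Maf (-1.38 to 0.43). Among the other listed genes the same range was Lyn (-0.31 to 1.88), Spi1 (-1.82 to 2.46), Cd14 (-1.45 to 1.05), Cyba (-1.13 to 2.35), Ctss (-2.88 to 1.75), Cfp (-2.05 to 1.84), C5ar1 (-1.97 to 2.61), Il1b (-0.46 to 4.44), Cma1 (-0.43 to 1.08), Pecam1 (-1.28 to 1.41), Krt5 (-1.46 to 0.089).

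Depth is estimated, so values of a few reads, such as Apoc2 in the first wild-type library, carry counting error that is not in the tests. With 2 libraries a group, a call needs a small spread. Protein identities were not run.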
